A study of Mus musculus with 27 samples.

Results

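Embryonic mouse hearts labelled Nkx2-5+/- were compared with wild-type hearts, which takes 10 of the series' 27 arrays: 4 titled Nkx2-5+/- and 6 titled wild type, chosen by their titles alone. All hearts were dissected at E11.5, mid-gestation, from mice of a C57Bl/6/BLKSW mixed strain, total RNA was labelled with biotin, and each sample was run on its own array. The Nkx2-5+/- hearts are described as heterozygous for a deletion of Nkx2-5, without the part of the gene that is missing, and wild-type hearts carry no labelled allele. The other 17 arrays are of hearts labelled Tbx5+/- (5), Brg1+/- (6), Tbx5+/- Brg1+/- (3) and Nkx2-5+/- Brg1+/- (3). Nothing states whether arrays come from separate embryos, litters or pools, so p-values measure only the spread between these samples, which may in part be technical. Signals are on a log2 scale for 19935 genes, and precision is set by how few arrays each group has.

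Nkx2-5 is a homeodomain transcription factor that is switched on in cardiac progenitors and stays on in heart muscle. It works with Tbx5, Gata4 and Mef2c at the promoters and enhancers of muscle genes, and its known targets include Nppa, the gene of atrial natriuretic peptide, and Hopx, a small cofactor of cardiac transcription. Loss of both copies stops heart looping in the mouse embryo, and loss of 1 copy in people is known for septal defects and atrioventricular block. The embryonic heart at this stage also holds primitive red cells in its lumen, so a whole-heart RNA sample carries muscle, endocardium, cushion, epicardium and blood together.

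The Nkx2-5 signal was 8.48, 8.48, 9.40 and 8.63 in Nkx2-5+/- replicates 1 to 4, and in the 6 wild-type arrays it ran from 9.17 through a median of 9.66 to 9.96. The labels do not say whether the probe set lies in the deleted stretch. Replicate 3 lay among the wild-type arrays, while the other 3 lay below all of them. Over the series, Nkx2-5 ran from 8.48 to 9.24 on the other 6 arrays labelled with its deletion. It ran from 8.99 to 10.01 on the 20 labelled without it, so the ranges overlapped. Nkx2-5 fell by 0.85 on the log2 scale over all 4 arrays (SE 0.17, limma adjusted p = 0.007). With only the 10 arrays of both groups in the fit the same fall had an adjusted p of 0.0922. Without replicate 3 the fall was 1.07 (adjusted p = 5.69e-05). That array was set apart by its own Nkx2-5 value, so leaving it out was bound to enlarge the fall, and this p is no further test. The array labelled Nkx2-5+/- replicate 3 went against its label a second way: Smarca4, the gene of Brg1, was 9.57 there, against 9.89, 10.08 and 10.06 on the other 3 and 9.95 to 10.16 in wild type. Smarca4 ran from 9.16 to 10.01 on the 12 arrays whose label names a Brg1 deletion. Lyz2, looked up for this after its values were seen, was 6.17 on replicate 3, inside the 5.60 to 6.44 of the remaining 6 arrays labelled with an Nkx2-5 deletion, and below the 6.99 to 8.21 of the 20 arrays labelled without it. Counts over all genes, over gene lists and over neighbouring genes are given with and without this array, and directions hold for arrays as labelled. Lists are read against the share of all genes called, 7.89% with all 4 arrays and 21.9% without replicate 3. With all 4 arrays calls were more frequent among well expressed genes, so for lists of such genes 7.89% is a low share to compare with.

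**Figure D1:**
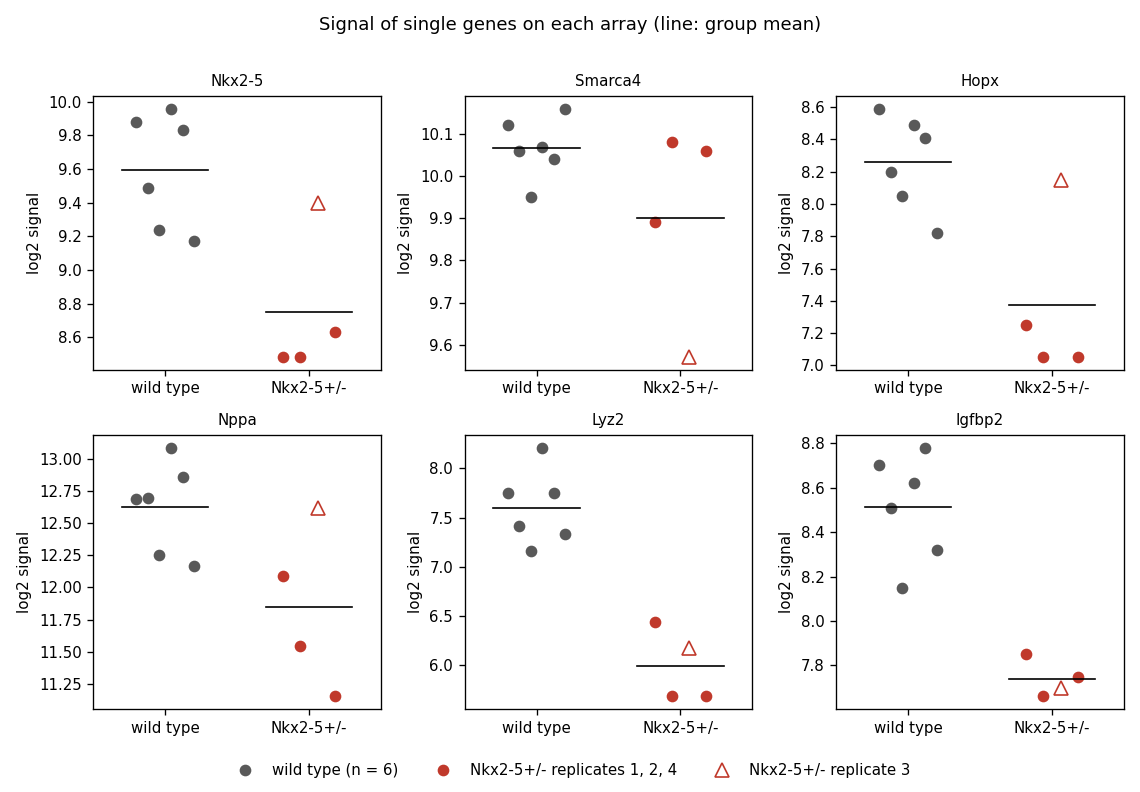
Log2 signal (y axis) of 6 genes on each of the 6 wild-type arrays (grey points) and the 4 Nkx2-5+/- arrays (red points, with replicate 3 as an open triangle). Lines are group means. Replicate 3 lies among the wild-type arrays for Nkx2-5, Hopx and Nppa, below them for Smarca4, and with the other Nkx2-5+/- arrays for Lyz2 and Igfbp2.

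Of 19935 genes, 1572 were called at a limma adjusted p under 0.05 (7.89% of the genes tested), with 543 higher (2.72%) and 1029 lower (5.16%) in Nkx2-5+/- hearts. A change of at least 1.5-fold was seen for 549 of them. Without replicate 3 the count was 4368 (21.9%), with 1323 higher (6.64%) and 3045 lower (15.3%), and 1545 of the 1572 were called in the same direction both ways. The split moved with the scaling: 34.5% of calls were higher as deposited, 46.3% after a further quantile normalization and 55.5% with array medians equalised. Other arrays carried the count too, which was 66 without Nkx2-5+/- replicate 2, 224 without replicate 4, 895 without replicate 1, and 754, 593 and 841 without wild-type replicates 1, 4 and 5. With the 10 arrays of both groups alone it was 4, namely Cav1, Lyz1, Lyz2 and Pcp4l1, and with these 10 arrays less replicate 3 it was 3109. Calls lay mostly among well expressed genes, with 41 higher and 8 lower in the third of genes with the lowest wild-type level and 305 higher and 772 lower in the third with the highest.

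Most called genes sat at wild-type levels on replicate 3. Of the 543 genes called higher, 355 (65.4%) had a replicate 3 value inside the range of the 6 wild-type arrays, against 47, 9 and 40 on replicates 1, 2 and 4. Of the 1029 called lower, 652 (63.4%) did, against 124, 17 and 42. Among all genes, 210 (1.05%) had all 4 Nkx2-5+/- arrays above all wild-type arrays and 286 (1.43%) had all 4 below, of which 118 and 224 were called. Without replicate 3 these became 1220 (6.12%) and 2347 (11.8%).

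**Figure D2:**
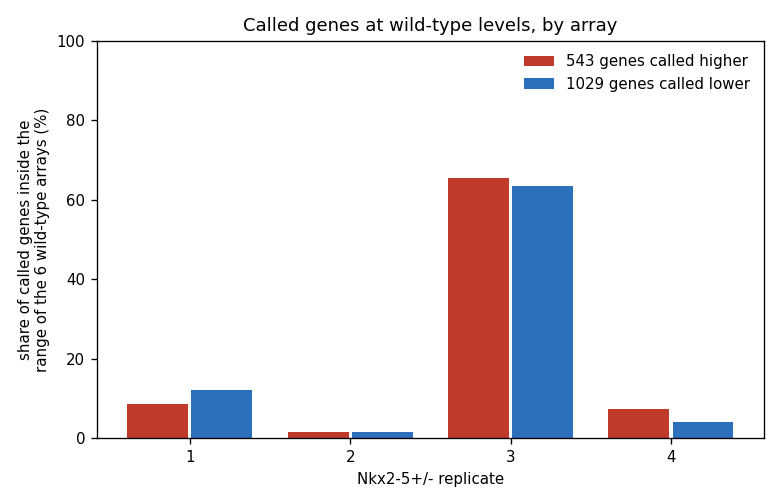
Share of called genes (y axis, percent) whose signal on each Nkx2-5+/- array (x axis) lies inside the range of the 6 wild-type arrays, for the 543 genes called higher (red) and the 1029 called lower (blue). The bars of replicate 3 reach 65.4% and 63.4%, and no other bar passes 12.1%.

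Known Nkx2-5 targets were lower as a group on Nkx2-5+/- replicates 1, 2 and 4. Of 30 listed targets, 9 fell and none rose, with a median log2 change of -0.36, where the median of all genes was -0.011. Without replicate 3, 23 fell and 1 rose, and the median was -0.60. The fall was not particular to targets, as the sarcomere list had a median of -0.47 over all 4 arrays. With the mean of the red cell list as a covariate in the fit, the target median was -0.11 and no target was called. That mean was 10.31 to 10.50 on replicates 1, 2 and 4 and 8.41 to 9.61 in wild type. The fit therefore cannot separate red cell signal from the genotype label. Hopx was 7.25, 7.05, 8.15 and 7.05 on replicates 1 to 4, against 7.82 to 8.59 (median 8.31) in wild type, and fell by 0.89 (SE 0.17, limma adjusted p = 0.00543). Nppa was 12.09, 11.54, 12.62 and 11.15, against 12.17 to 13.09 (median 12.70), and fell by 0.78 (SE 0.22, adjusted p = 0.0328). In both genes replicates 1, 2 and 4 lay below every wild-type array and replicate 3 did not. Smpx, a small muscle protein of the costamere, fell by 0.78, the stress-responsive Ndrg2 by 0.87 and the outflow guidance gene Sema3c by 0.78. Csrp3, a Z-disc sensor of stretch, fell by 0.61, and the ventricular light chain gene Myl2 by 0.42. Nppb, which encodes the B-type natriuretic peptide, did not pass: its log2 change was -0.21 (adjusted p = 0.547), and its signal on replicate 3 was 10.38, above the wild-type maximum of 10.20.

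The promoters of a pair of the lower genes with cardiac roles are shown because each holds the NKX2-5 type motif TNAAGTG, and those of a pair of the higher, red cell genes because each holds the GATA type motif AGATAA. They are the 250 bases before the RefSeq start on the coding strand (GRCm38.p6), Nppa at chr4:148000472-148000721, Lrrc10 at chr10:117045091-117045340, Epor at chr9:21963577-21963826 and Pklr at chr3:89135892-89136141. Capitals mark a match, on either strand, to the motif named for that pair alone. The match begins at -241 in Nppa, at -156 and -63 in Lrrc10, at -54 in Epor and at -35 in Pklr. Lrrc10 also holds AGATAA, left in lower case, so this motif does not set the red cell pair apart.
Nppa: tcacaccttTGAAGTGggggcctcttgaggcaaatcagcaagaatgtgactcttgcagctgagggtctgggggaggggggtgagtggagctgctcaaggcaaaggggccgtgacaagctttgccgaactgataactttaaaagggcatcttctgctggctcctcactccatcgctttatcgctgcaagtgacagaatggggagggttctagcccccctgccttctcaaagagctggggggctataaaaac
Lrrc10: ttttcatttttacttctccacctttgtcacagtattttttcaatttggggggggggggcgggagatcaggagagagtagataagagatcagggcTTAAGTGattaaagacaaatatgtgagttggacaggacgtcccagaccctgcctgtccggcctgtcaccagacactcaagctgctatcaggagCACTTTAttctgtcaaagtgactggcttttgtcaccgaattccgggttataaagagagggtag
Epor: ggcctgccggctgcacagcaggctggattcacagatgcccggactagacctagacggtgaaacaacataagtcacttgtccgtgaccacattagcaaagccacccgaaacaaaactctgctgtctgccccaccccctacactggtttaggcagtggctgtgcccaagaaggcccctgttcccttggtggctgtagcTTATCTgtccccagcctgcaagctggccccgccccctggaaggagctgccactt
Pklr: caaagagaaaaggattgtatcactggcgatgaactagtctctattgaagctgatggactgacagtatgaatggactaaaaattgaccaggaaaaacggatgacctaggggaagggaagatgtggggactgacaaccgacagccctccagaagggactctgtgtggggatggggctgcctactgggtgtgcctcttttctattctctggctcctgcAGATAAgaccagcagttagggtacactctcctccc

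Over the promoter windows of 250 bases before to 50 after the start, TNAAGTG was no more frequent among lower genes than among all. It was found on either strand in 8.53% of 844 promoters of genes called lower, in 8.37% of 442 of genes called higher and in 10.4% of all 15612. AGATAA was found in 6.64%, 10.4% and 9.55%, and the MEF2 type motif TAAAAATA in 1.54%, 0.452% and 1.95%. A match is a string of letters and no measured site.

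Transcription factors of the heart shared the pattern. Of 37 listed, 8 fell and none rose (median log2 change -0.22), and 20 fell and 2 rose without replicate 3. Tbx5, the partner of Nkx2-5 in the atria and left ventricle, was 7.92, 8.01, 8.54 and 7.82 against 8.40 to 8.96 (median 8.53), and fell by 0.49 (SE 0.13, limma adjusted p = 0.0225). Smyd1, a muscle histone methyltransferase, fell by 0.76, Gata6 by 0.52, and Hand2, a factor of the right ventricle, by 0.39. Gata4 did not pass, with a log2 change of -0.33 (adjusted p = 0.0983), or of -0.49 without replicate 3 (adjusted p = 0.00272).

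Contractile genes were lower in the same 3 arrays. Of 34 sarcomere genes, 19 fell and none rose, with a median log2 change of -0.47, and 29 fell without replicate 3 (median -0.77). The mean signal of the list was 9.89, 9.77, 10.70 and 9.81 on Nkx2-5+/- replicates 1 to 4, and 10.30 to 10.80 in wild type, so that replicates 1, 2 and 4 lay below and replicate 3 among the wild-type arrays. Des, which encodes the intermediate filament desmin, fell by 0.85, the thin filament nucleator Lmod2 by 0.81, the Z-disc gene Myoz2 by 0.95 and the small heat shock gene Cryab by 0.65. The atrial myosin gene Myh6 was 11.09, 11.37, 12.25 and 11.05 against 11.89 to 12.10, and fell by 0.57 (limma adjusted p = 0.0402), and the troponin gene Tnnt2 fell by 0.53. Actc1, cardiac actin, had a log2 change of -0.23 (adjusted p = 0.0874). Ttn, which encodes titin, had 0.18 (adjusted p = 0.823), with 10.62 on replicate 3 against at most 9.74 in wild type, and -0.33 without that array. In whole hearts, fewer cells of a type and less RNA per cell cannot be told apart.

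Red cell genes moved with these falls in the opposite direction. Of 42 erythroid genes, 20 rose and none fell (median log2 change 1.24), and 38 rose without replicate 3 (median 1.71). The list's mean signal was 10.37, 10.50, 8.74 and 10.31 on replicates 1 to 4 and 8.41 to 9.61 in wild type, so the same 3 arrays stood above every wild-type array. With that mean as a covariate in the fit, 4 genes were called in place of 1572, all lower: Lyz2, Lyz1, Gpx8 and Masp1, and 1650 genes had an unadjusted limma p under 0.05. The sarcomere median was then -0.24 with no call among the 34 genes, and Nkx2-5 had a log2 change of -0.53 (adjusted p = 0.317). The wild-type arrays with the highest erythroid means, replicates 2 and 3 at 9.61 and 9.32, had the lowest sarcomere means of their group, 10.41 and 10.30, both above the 9.77 to 9.89 of the 3 Nkx2-5+/- arrays. As the covariate itself set replicates 1, 2 and 4 apart from wild type, that fit cannot separate red cell signal from the genotype label. The part of the red cell signal in the fall of muscle genes was not tested beyond these values.

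**Figure D3:**
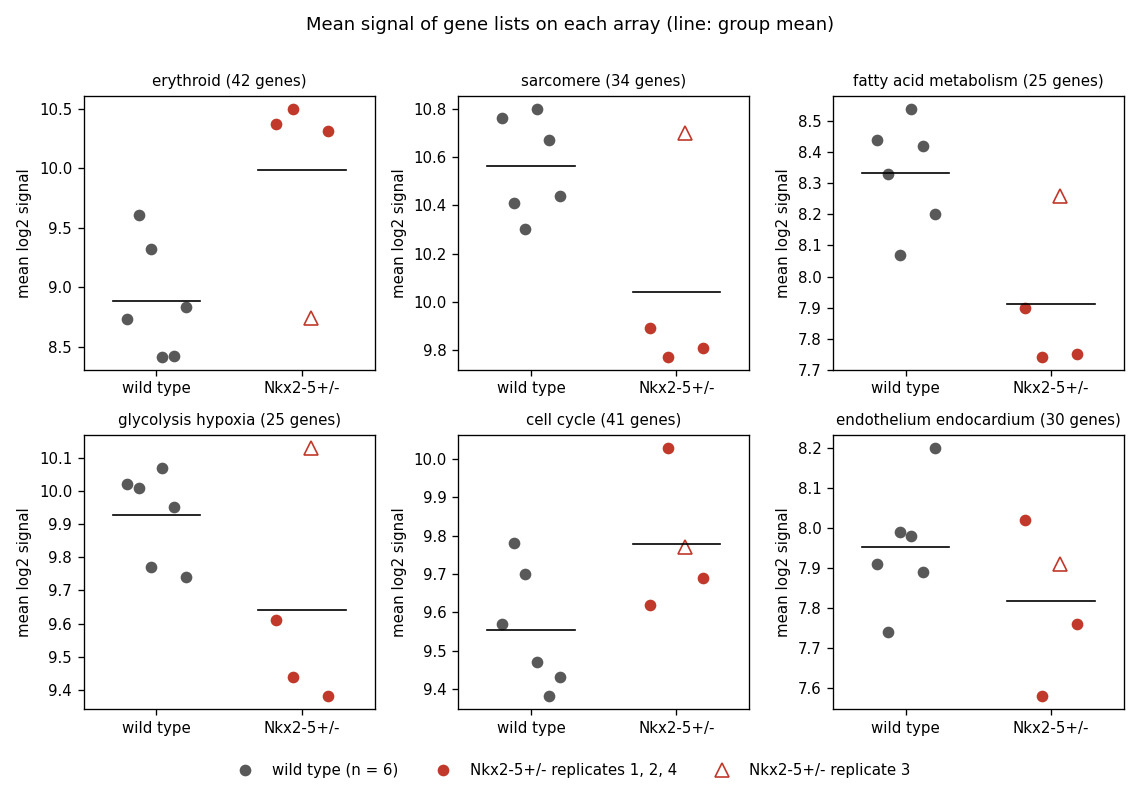
Mean log2 signal (y axis) of 6 gene lists on each wild-type array (grey) and each Nkx2-5+/- array (red, with replicate 3 as an open triangle). Lines are group means. Replicates 1, 2 and 4 lie above all wild-type arrays for the erythroid list and below all of them for the sarcomere, fatty acid and glycolysis lists. Replicate 3 lies inside the wild-type range for the first 3 of these and above it for glycolysis (10.13 against at most 10.07).

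The 4 largest rises, of Hemgn, Pklr, Gata1 and Epor, were all of genes on the red cell list. Hemgn, a nuclear protein of erythroid precursors, was 10.47, 11.28, 8.65 and 10.89 against 6.70 to 9.91 (median 8.32), and rose 4.07-fold (log2 2.03, SE 0.61, limma adjusted p = 0.039). Gata1, the master factor of red cell development, was 9.76, 10.23, 8.27 and 9.60 against 6.54 to 8.92, and rose by 1.74 (SE 0.45, adjusted p = 0.0205). The wild-type arrays spread widely for both, and replicate 3 lay inside their range. High means of both were not particular to Nkx2-5+/- hearts. The group mean of Gata1 was 9.47 in Nkx2-5+/-, 8.96 in Brg1+/-, 7.89 in Nkx2-5+/- Brg1+/- and 7.73 in wild type. The means of Hemgn, in the same order, were 10.32, 9.96, 8.86 and 8.30. Pklr, red cell pyruvate kinase, rose by 1.80, and Epor, the receptor of erythropoietin, rose by 1.62. Ank1 and Add2 of the red cell membrane skeleton rose by 1.49 and 1.40. The haem synthesis genes Cpox, Uros and Urod rose by 1.48, 1.15 and 1.13, and the mitochondrial transporter Abcb10 by 1.36. Also among the 15 largest rises were the phosphatase gene Acp5 (1.62), Tlcd4 (1.60), the potassium channel gene Kcnn4 (1.57), Tspan33 (1.55), the lymphoid and erythroid factor Ikzf1 (1.53), the manganese exporter Slc30a10 (1.53), the elongation factor Ell2 (1.5) and the mitochondrial carrier Slc25a21 (1.49). Of the defining red cell genes, Alas2 and Klf1 did not pass, with log2 changes of 0.87 (adjusted p = 0.171) and 1.22 (adjusted p = 0.0618). Of 5 embryonic and adult globin genes measured, 1 rose, Hbb-bh1 by 0.92 (adjusted p = 0.044), and 5 rose without replicate 3.

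A red cell microRNA locus also separated replicate 3 from the other 3 arrays. Mir144 and Mir451a lie next to each other and are known as targets of Gata1 in red cells. Their mature products, from RefSeq (GRCm38.p6), are shown with the seed, bases 2 to 8, in capitals. The 3 seeds differ.
mmu-miR-451a: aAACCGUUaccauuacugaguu
mmu-miR-144-5p: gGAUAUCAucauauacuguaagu
mmu-miR-144-3p: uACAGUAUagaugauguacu

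The array reads the gene of each microRNA and gives no level for a mature arm, and both genes were picked after their values were seen. Mir451a was 7.45, 8.67, 5.38 and 8.11 against 5.80 to 6.34 in wild type, and rose by 1.33 (SE 0.41, limma adjusted p = 0.0415). Mir144 was 7.99, 8.94, 4.70 and 8.12 against 4.77 to 6.51, with a log2 change of 1.87 (adjusted p = 0.0512), or 2.78 without replicate 3 (adjusted p = 0.000311). On replicate 3 both lay below every wild-type array, and on the other 3 above every one. Of 287 microRNA genes measured, 3 rose and none fell, below the 2.72% called higher and the 7.89% called either way over all genes.

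Many genes of energy metabolism were lower in the same arrays. Of 25 fatty acid genes, 15 fell and none rose (median log2 change -0.40), and 19 fell without replicate 3. Lpl, lipoprotein lipase, fell by 1.06, the beta-oxidation genes Acadl, Acaa2 and Hadh by 0.68, 0.68 and 0.65, and the fatty acid binding protein gene Fabp3 by 0.69. Acadl was 9.11, 8.74, 9.21 and 8.96 against 9.29 to 10.02, so that all 4 arrays lay below wild type, and Esrrb, an orphan nuclear receptor, did the same at 5.04 to 5.45 against 5.63 to 6.22. Of 27 oxidative phosphorylation genes, 9 fell and none rose, and 21 fell without replicate 3. The muscle forms of cytochrome oxidase subunits led them: Cox8b fell by 1.18, Cox6a2 by 0.83 and Cox7a1 by 0.62, the last with all 4 arrays (9.21 to 9.83) below wild type (9.89 to 10.44). Of 10 creatine and energy transfer genes 7 fell, or 8 without replicate 3, including the LIM domain gene Fhl2 by 0.90, myoglobin (Mb) by 0.82, muscle creatine kinase (Ckm) by 0.78, adenylate kinase (Ak1) by 0.73 and the creatine transporter gene Slc6a8 by 0.43.

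Glycolysis and hypoxia genes showed a further feature of replicate 3. Of 25, 9 fell and 1 rose (median log2 change -0.41), and 17 fell and 2 rose without replicate 3. The list mean was 9.61, 9.44, 10.13 and 9.38 on replicates 1 to 4, against 9.74 to 10.07 in wild type, so replicate 3 lay above every wild-type array and the others below. Replicate 3 was also above every wild-type array for other list means, so this was not particular to glycolysis. Among them were known Nkx2-5 targets (9.89 against at most 9.76) and chamber genes (8.96 against 8.90). Calcium handling genes (8.49 against 8.43) and cardiac transcription factors (8.41 against 8.35) did the same. Hk2, the insulin-responsive hexokinase, was 8.06, 7.96, 9.70 and 8.15 against 8.38 to 9.03, with a log2 change of -0.31 (limma adjusted p = 0.407), or -0.72 without replicate 3 (adjusted p = 0.000127). Ldha and Vegfa did the same, at 13.23 and 8.90 on replicate 3 against wild-type maxima of 13.02 and 8.60. Hif1a, the hypoxia factor, fell by 0.55, and the glycolytic enzymes Pfkp, Eno3 and Pgam1 by 0.89, 0.75 and 0.60.

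Calcium handling, conduction and chamber genes fell in part. Of 20 calcium handling genes, 4 fell and none rose, and 16 fell and 1 rose without replicate 3. Casq2, the calcium buffer of the sarcoplasmic reticulum, was 7.22, 6.67, 7.14 and 7.04 against 7.41 to 8.72 and fell by 1.06 (SE 0.21, limma adjusted p = 0.00703), below wild type on all 4 arrays. Pln, phospholamban, fell by 0.86, the channel subunit gene Cacna2d1 by 0.49 and S100a1 by 0.60. Ryr2 and Atp2a2, the release channel and the pump, did not pass (-0.20, adjusted p = 0.641, and -0.22, adjusted p = 0.325), with replicate 3 above all wild-type arrays in both. Of 27 conduction and ion channel genes, 4 fell and none rose, and 10 fell and 2 rose without replicate 3. Kcne1 and Kcnq1, subunits of the slow delayed rectifier, fell by 0.82 and 0.36, Kcnj2 by 0.71, and Id2, a regulator of conduction system development, by 0.62. Kcne1 was 5.91, 5.73, 6.33 and 6.15 against 6.43 to 7.23, with no overlap. The connexin gene Gja5 had a log2 change of -0.36 (adjusted p = 0.224). Of 32 chamber genes, 10 fell and none rose, and 21 fell without replicate 3. Lrrc10, a cardiac leucine-rich repeat protein, was 6.13, 6.11, 7.27 and 6.24 against 7.0 to 7.84 and fell by 1.06. Of 15 atrial and sinus genes, 4 fell, or 7 without replicate 3, and the sinus node factor Shox2 (5.46 to 6.67 against 6.68 to 7.68), Nr2f1 and Stard10 had all 4 arrays below wild type.

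**Figure D4:**
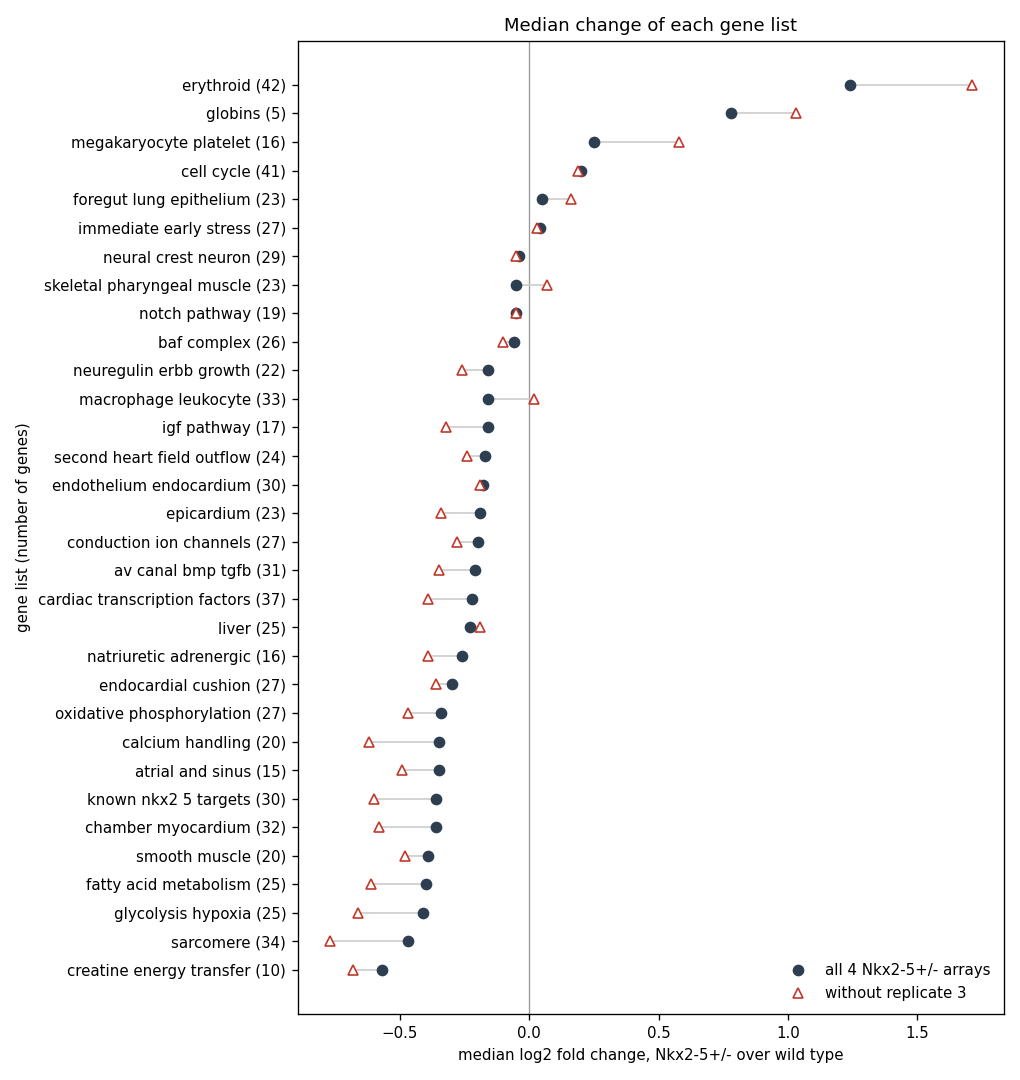
Median log2 fold change of Nkx2-5+/- over wild type (x axis) for 32 gene lists, with the number of genes in brackets, over all 4 arrays (dark points) and without replicate 3 (open triangles). The erythroid list is highest at 1.24 and 1.71, and the sarcomere and creatine lists are lowest.

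Some genes of several signalling pathways were lower. Of 31 genes of the atrioventricular canal, Bmp and Tgf-beta pathways, 6 fell and none rose, and 13 fell without replicate 3. The ligands Bmp4 and Bmp7 fell by 0.61 and 0.52, the signal carrier Smad1 by 0.44 and the target Id3 by 0.40. Cav1, the coat protein of caveolae, was 7.59, 7.32, 7.72 and 7.42 against 8.20 to 8.58, and fell by 0.83 (SE 0.13, limma adjusted p = 0.00226). Its 4 arrays lay well apart from wild type, replicate 3 included. Bmp2, a defining gene of the canal, had a log2 change of -0.28 (adjusted p = 0.546), with 8.03 on replicate 3 against 6.36 to 6.68 on the others. Of 19 Notch genes, Hey1 and Hey2 fell, by 0.39 and 0.64, a count near the 7.89% called over all genes. The Notch median log2 change was -0.05, and 2 fell without replicate 3, below the 21.9% of all genes. Of 22 neuregulin and growth genes, Erbb2 alone fell, by 0.51, below the 7.89% share, and 9 did without replicate 3. Of 17 insulin-like growth factor genes, 1 rose and 4 fell, and 1 rose and 5 fell without replicate 3. The binding protein gene Igfbp2 was 7.85, 7.66, 7.70 and 7.75 against 8.15 to 8.78 and fell by 0.77 (SE 0.13, adjusted p = 0.00229), the ligand gene Igf2 fell by 0.33, and Irs2, an adaptor of the insulin receptor, rose by 0.90 with replicate 3, at 7.50, inside the wild-type range.

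Endothelial genes were not called. Of 30 endothelial and endocardial genes, 0 were called by limma with all 4 arrays or without replicate 3, and the median log2 change was -0.18. At an unadjusted p under 0.05 there were 2 and 9. Pecam1 had -0.27 (limma adjusted p = 0.437), Cdh5 -0.26 (adjusted p = 0.496) and Kdr -0.10 (adjusted p = 0.864), and their groups overlapped. Of 27 cushion genes, Lum alone, the matrix proteoglycan lumican, fell, by 1.04, with its lowest value, 5.54, on replicate 3. Without that array 6 fell. The first count is below the 7.89% called over all genes, and the second is near the 21.9% called without replicate 3. The cushion gene Postn had -0.61 (adjusted p = 0.0985). Of 23 epicardial genes, 6 fell, or 9 without replicate 3, among them Tcf21 by 0.45, Sema3d by 0.57, Krt19 by 0.56 and Msln by 0.70, while Upk3b had -0.38 (adjusted p = 0.0569). Of 20 smooth muscle genes, 5 fell, or 9 without replicate 3, with Cnn1, calponin, by 0.95, Actg2 by 0.55 and Myh11 by 0.38. Acta2, the smooth muscle actin also expressed by the embryonic myocardium, had -0.40 (adjusted p = 0.0899), with 13.27 on replicate 3 against 12.10 to 12.22 on the others.

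Some markers of other cell types differed between arrays as well as groups. Of 33 macrophage and leukocyte genes, 4 fell and none rose, namely Lyz2, Lyz1, Mrc1 and Csf1r, with a median log2 change of -0.16. Without replicate 3, 2 rose and 2 fell with a median of 0.02, and Mrc1 (-0.51, limma adjusted p = 0.0761) and Csf1r (-0.34, adjusted p = 0.125) did not pass. The list mean was 5.50 on replicate 3, below 6.05 to 6.29 on the others and 6.07 to 6.39 in wild type. Of 16 megakaryocyte genes, Gfi1b, which red cells share, rose by 1.30, and 6 rose without replicate 3. The platelet integrin gene Itga2b had 0.50 (limma adjusted p = 0.305). The megakaryocyte mean was 7.18 on replicate 3, below all wild-type arrays (7.61 to 8.16), and 8.33 to 8.92 on the others, above them. Of 25 liver genes, 0 were called by limma either way, and 2 and 0 had an unadjusted p under 0.05. Their mean was 6.87 on wild-type replicate 3 and 5.35 to 5.68 on the other wild-type arrays, with Alb at 9.71 and Afp at 10.80 there. Of 24 second heart field and outflow genes 4 fell, of 23 skeletal and pharyngeal muscle genes 3 fell, and of 29 neural crest and neuron genes 3 fell, with no rise in these lists. Without replicate 3 the counts were 6 lower and 1 higher, 4 lower and 3 lower. With all 4 arrays, the megakaryocyte, macrophage, skeletal muscle and neural counts were near or little above the 7.89% called over all genes. Without replicate 3, those of macrophage, skeletal muscle and neural genes were below the 21.9% called over all genes. Of 23 foregut and lung epithelium genes 1 rose and 3 fell, and 6 rose and 5 fell without replicate 3. Xist was low on Nkx2-5+/- replicate 4 and wild-type replicate 3 (4.73 and 4.57) and above 10 on the other 8.

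Cell cycle genes rose in part. Of 41, 8 rose and none fell (median log2 change 0.20), and 12 rose and 5 fell without replicate 3. The mitotic kinase genes Aurka and Plk1 were above every wild-type array on all 4 Nkx2-5+/- arrays, Aurka at 9.60 to 10.01 against 9.22 to 9.51 and Plk1 at 9.92 to 10.13 against 9.54 to 9.70. They rose by 0.43 and 0.35 (limma adjusted p = 0.0142 and 0.0196). Mki67, the proliferation antigen, rose by 1.24, Ccnd3, a cyclin abundant in erythroid cells, by 0.55 and Ccna2 by 0.47, each with replicate 3 inside the wild-type range. Of 26 BAF chromatin remodelling genes, 1 rose and 2 fell, near the 7.89% called over all genes, and 3 rose and 6 fell without replicate 3. Pbrm1 rose by 0.42 with no overlap, and Smarcd3, the cardiac Baf60c subunit, and Smarca2, the alternative ATPase, fell by 0.52 and 0.46. Smarca4 had a log2 change of -0.17 (adjusted p = 0.384). Of 27 immediate early and stress genes, the phosphatase gene Dusp1 and the antiproliferative gene Btg2 rose, by 0.75 and 0.73, a count near the share of all genes. Without replicate 3, 4 genes of this list rose and 6 fell. Of 16 natriuretic and adrenergic genes, 3 fell, or 5 without replicate 3. The 3 were Nppa, the vasodilator peptide gene Adm by 0.71 and the receptor gene Npr2 by 0.50.

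Some genes were lower on all 4 Nkx2-5+/- arrays, replicate 3 included. Lyz2, lysozyme of macrophages, was 6.44, 5.68, 6.17 and 5.69 against 7.16 to 8.21 (median 7.58), and fell by 1.61 (SE 0.20, limma adjusted p = 0.000148), which is 3.05-fold. Lyz1 fell by 1.21 and is a close copy of Lyz2, so the probe sets may share signal. These genes are neighbours, and of the 20 measured genes around Lyz2 in the RefSeq order, Lyz1 and Lrrc10 were the 2 called, or 3 were without replicate 3, where 7.89% and 21.9% of all genes were. Aldh1b1, a mitochondrial aldehyde dehydrogenase, fell by 1.19, and the muscle and neuron elongation factor gene Eef1a2 fell by 1.18. The vesicle coat gene Snap91 fell by 1.09, the peptidase gene Cpq by 1.05, the interleukin receptor gene Il13ra1 by 1.05 and Igfbpl1 by 1.03. All 6 had no overlap with wild type. Eef1a2 was 8.70, 8.82, 8.64 and 8.83, a spread of 0.09 (SD, n = 4), against 9.09 to 10.57. Gpx8, Masp1 and Pcp4l1, named because they were called with the erythroid covariate or with the arrays of both groups alone, fell by 0.80, 0.66 and 0.99, also with no overlap. Phyh and Fam189a2, by contrast, fell by 1.03 and 1.05 with replicate 3 inside the wild-type range.

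Around Nkx2-5 itself, 3 of the 20 nearest measured genes on chromosome 17 were called, with log2 changes from -0.39 to 0.75 over the 20. Dusp1 rose by 0.75, and Ergic1, a transport protein of the early secretory pathway, and the apoptosis effector gene Bak1 fell by 0.35 and 0.39. Without replicate 3, 5 were called. These counts stand beside 7.89% and 21.9% called over all genes. The order comes from the RefSeq gene table.

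Nkx2-5+/- hearts were also set directly against 3 of the other genotypes, in contrasts that share the Nkx2-5+/- arrays and leave wild type out. Against Tbx5+/- hearts, 2225 genes differed at a limma adjusted p under 0.05 (11.2%), 687 higher (3.45%) and 1538 lower (7.72%) in Nkx2-5+/-, and 4550 (22.8%) without replicate 3. Lyz2 was 7.64 ± 0.24 (SD, n = 5) in Tbx5+/- hearts and 6.00 ± 0.38 (SD, n = 4) in Nkx2-5+/- hearts, a difference of -1.64. Lrrc10 (-1.39), Pcp4l1 (-1.27), Plaat3 (-1.24), Mlip (-1.11), Rab11fip5 (-1.10), Igfbp2 (-1.02), Abat (-0.90) and Tspyl4 (-0.78) were also lower. With the erythroid mean as a covariate 60 genes differed.

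Against Brg1+/- hearts, 4 genes differed (0.0201%), 2 higher (0.01%) and 2 lower (0.01%) in Nkx2-5+/-, and 1475 (7.4%) differed without replicate 3. Lyz2 and Lyz1 were lower in Nkx2-5+/-, by -1.51 and -1.28 on the log2 scale, and Adcy1 and Smarca4 were higher, by 0.83 and 0.58. Smarca4 is the gene of the Brg1 label itself. Its mean was 9.32 in Brg1+/-, 9.90 in Nkx2-5+/- and 10.07 in wild-type hearts, so it was not raised over wild type. Adcy1, a calcium-stimulated adenylyl cyclase, was 7.58, 8.07, 7.36 and 7.37 in Nkx2-5+/- hearts, 6.58 to 7.03 in Brg1+/- and 6.63 to 7.0 in wild type, with no overlap. Hopx was 8.23 ± 0.24 (SD, n = 6) in Brg1+/- hearts, and its difference of -0.86 did not pass (limma adjusted p = 0.0703), or passed at -1.11 without replicate 3 (adjusted p = 0.00012). Igfbp2 was 7.86 ± 0.20 (SD, n = 6) in Brg1+/- hearts and 7.74 ± 0.08 (SD, n = 4) in Nkx2-5+/- hearts.

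Against Nkx2-5+/- Brg1+/- hearts, which share the Nkx2-5 label, 8 genes differed (0.0401%), 1 higher (0.00502%) and 7 lower (0.0351%) in Nkx2-5+/-, and 2308 (11.6%) differed without replicate 3. The 7 lower genes were Apela, by -1.0, S100a6 by -0.99, Fmod by -0.94, Cst9 by -0.90, Aebp1 by -0.78, Cd82 by -0.71 and Cdh3 by -0.63. Arel1 was higher by 0.83. For all 7 lower genes the wild-type mean lay between the means of both groups. Fmod, Cst9 and Cdh3 were not called against wild type (limma adjusted p = 0.0535, 0.206 and 0.0949). Cst9, with means of 3.80 and 4.70, was in the third of genes with the lowest wild-type level. Apela, a ligand of the apelin receptor, was 7.62, 7.32, 7.62 and 7.52 in Nkx2-5+/- hearts, 8.42 to 8.66 in Nkx2-5+/- Brg1+/- hearts and 7.65 to 8.10 in wild type, so the groups lay on either side of wild type. Lyz2 stayed low in both, at 6.04 ± 0.40 (SD, n = 3) with the Brg1 label. The count was 0 without Nkx2-5+/- Brg1+/- replicate 2, where 2169 genes had an unadjusted limma p under 0.05, and it was 2 without replicate 1 and 357 without replicate 3 of that group.

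**Figure D5:**
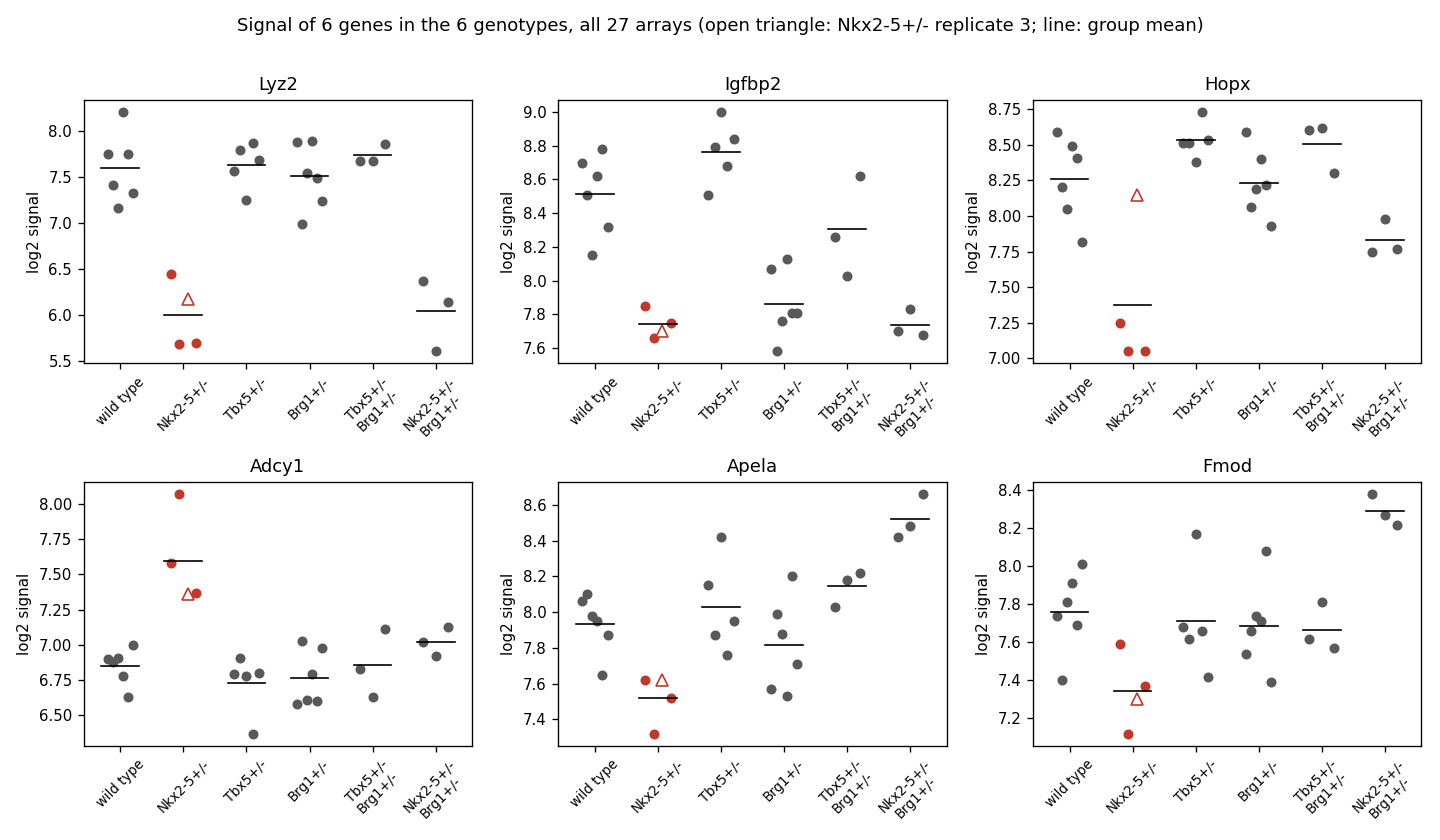
Log2 signal (y axis) of 6 genes on all 27 arrays by genotype label (x axis). Nkx2-5+/- arrays are red, with replicate 3 as an open triangle, other arrays are grey, and lines are group means. Lyz2 is low in both groups with an Nkx2-5 label, and by group mean Adcy1 is highest in Nkx2-5+/- hearts, and Apela and Fmod lie lowest in Nkx2-5+/- and highest in Nkx2-5+/- Brg1+/- hearts.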

How the data were processed

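The log2 signals are used as deposited. Per the submitters' processing notes, the authors used Affymetrix Power Tools and the RMA method; versions and the genome build are not given in the sources used here. The platform table gave 1 gene symbol for 21780 of 28815 probe sets, several for 1605 and no entry for 5430. Only those with 1 symbol were analysed. Where a gene had several probe sets (998 genes), the brightest on average stood for it, leaving 19935 genes.

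A limma fit (version 3.58.1, R 4.3.3) took all 27 arrays, with 6 genotype means and no trend (21 residual and 6.71 prior degrees of freedom). Tests were two-sided, with Benjamini-Hochberg adjustment over all genes, and a gene is called at an adjusted p under 0.05. The fit was tested on simulated data. The members and lists were chosen with earlier results of these data known, so lists are described by counts and medians, with no list test. The text draws its names from Nkx2-5, Tbx5 and Smarca4, the 15 largest rises and 15 largest falls among called genes, up to 6 called members and the defining members of each list, 10 neighbours on each side of Nkx2-5 and the 10 smallest p of each direct contrast. Of list members with defining roles some were left out for length. Mir144, Mir451a, Masp1, Ldha, Vegfa, the neighbours of Lyz2 and the replicate 3 contrasts beside single genes were chosen after their values were seen. Promoters and microRNAs come from RefSeq tables (GRCm38.p6). Plots used matplotlib 3.10.9 (Python 3.11.15). Alternatives covered scaling, probe set choice, filters, priors, array weights, covariates and each array left out.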

Additional observations from a re-analysis of the deposited data

Results flagged for a closer look

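Single arrays were flagged where the gap to the nearest other array of the group took an unusually large part of the group's range (Dixon's criterion), and 37 of 372 groups of values were. Chance flags about 1 in 20 groups. Nkx2-5+/- replicate 3 accounts for 24 of them. It was the high array for Nkx2-5 (9.40), Hand2 (8.18), Csrp3 (11.67), Lrrc10 (7.27), Ttn (10.62), Pdk4 (7.32), Pfkp (10.39), Hk2 (9.70) and Acta2 (13.27), and for the list means of sarcomere (10.70), atrial and sinus (8.25) and conduction genes (6.98). It was the low array for Acp5 (9.55), Tspan33 (8.65), Slc30a10 (8.25), Ell2 (7.48), Ank1 (8.53), Add2 (7.70), Alas2 (10.60), Mki67 (10.61), Btg2 (7.25) and Afp (5.23), and for the erythroid (8.74) and globin (10.25) means. Nkx2-5+/- replicate 1 was high for Actg2 (7.09).

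Wild-type replicate 6 was high for Tbx5 (8.96), Shox2 (7.68), Id3 (9.22), Kdr (9.96) and Arid1a (9.18), and for the atrial and sinus mean (8.48). Wild-type replicate 3 was high for Alb (9.71) and for the liver (6.87) and sex-linked (5.40) means. Wild-type replicate 2 was high for Actg2 (7.60) and Btg2 (7.65), and replicate 1 for Smarcd3 (9.23).

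The difference between genotypes was tested itself in the direct contrasts, where 2225 genes differed between Nkx2-5+/- and Tbx5+/- hearts, 4 between Nkx2-5+/- and Brg1+/- hearts and 8 between Nkx2-5+/- and Nkx2-5+/- Brg1+/- hearts.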

How the results depend on the processing

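The alternatives were chosen with earlier results of these data known. The arrays called contrary to their labels, chosen by their own Nkx2-5 and Smarca4 values, are Nkx2-5+/- replicate 3 and Tbx5+/- Brg1+/- replicate 3 (Smarca4 10.01, against 9.51 and 9.64 in its group). The count of 1572 genes was 4 with the arrays of the compared groups alone, 3109 with these less Nkx2-5+/- replicate 3, 3744 with array weights, 4 with the erythroid mean as a covariate and 4346 without both arrays that go against their labels. It ranged from 66 to 4368 when 1 array was left out. The genes with no overlap went from 210 higher and 286 lower to 1220 and 2347 without replicate 3. Nkx2-5 kept its direction in all of these, at -0.85 with the compared groups alone and -0.53 with the erythroid covariate, neither past the threshold, and between -1.07 and -0.76 with 1 array left out, where it did not pass without Nkx2-5+/- replicate 2 (limma adjusted p = 0.0621). Same-numbered arrays did not deviate together (correlations -0.153, -0.00126, 0.0075 and -0.0744) and none correlated best with its own number, so the numbers are not taken as pairs. With the replicate number as a block, 1120 genes were called.

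Against Tbx5+/- hearts, the 2225 genes were 985 with the compared groups alone, 4378 with weights, 60 with the erythroid covariate, 4556 without both contrary arrays, and 682 to 4550 with 1 array left out. Against Brg1+/- hearts, the 4 genes were 12 after quantile normalization, 2 with the compared groups alone, 381 with weights, 7 with the covariate, 1530 without both contrary arrays, and 2 to 1475 with 1 left out. Against Nkx2-5+/- Brg1+/- hearts, the 8 genes were 121 after quantile normalization, 3 with medians equalised, 88 with a trended and robust prior, 0 by limma with the compared groups alone (1797 at an unadjusted p under 0.05), 3680 with weights, 412 with the replicate block, 1 with the erythroid covariate, 3 with the Y-linked covariate, 2363 without both contrary arrays, and 0 to 2308 with 1 left out. The cause of these moves was not tested.

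Of 123 named genes that were called, none changed direction under any of these settings. That was likely in advance, as these genes were picked for their calls in the same arrays. Many lost the call: 119 with the compared groups alone, 119 with the erythroid covariate, 106 without Nkx2-5+/- replicate 2, 95 without replicate 4 and 4 without replicate 3. Some genes not called did change sign. With the erythroid covariate Nppb became 0.16, Ryr2 0.16, Hk2 0.12, Kdr 0.14, Alas2 -0.36, Klf1 -0.083 and Itga2b -0.25. Ttn became -0.22 with array weights and -0.33 in the settings without replicate 3, and ranged from -0.33 to 0.39 with 1 array left out. Kdr became 0.12 with the block and ranged from -0.196 to 0.045, and Alb, high on wild-type replicate 3, from -0.79 to 0.27. Among list medians, megakaryocyte genes went from 0.25 to -0.29 with the erythroid covariate, endothelial genes from -0.18 to 0.03, neuregulin genes from -0.16 to 0.03, Notch genes from -0.05 to 0.15 and foregut genes from 0.05 to -0.01. Macrophage genes went from -0.16 to 0.02 and skeletal muscle genes from -0.05 to 0.07 without replicate 3. The Notch, BAF, neural and skeletal muscle medians changed sign with array medians equalised.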
